A study of Mus musculus with 6 samples.

Results

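Retinoic acid, the signalling form of vitamin A, is made, bound, sensed and destroyed by a small set of gene products. The 9 genes described here cover these steps: Cyp26b1 for breakdown, Rdh10, Aldh1a1, Aldh1a2 and Aldh1a3 for synthesis, Crabp2 and Stra6 for binding and uptake, and Rarb and Rxrg for reception. They were chosen by symbol, with values of the same comparison known, and all 9 were found among the 32285 genes of the matrices. For the 9 genes the comparison between groups is therefore a description, given as levels, fold-changes and errors without p-values. The brains came from a mouse model of post-hemorrhagic hydrocephalus (PHH) in which lysophosphatidic acid (LPA), a signalling lipid of blood plasma, is put into a brain ventricle. LPA-injected and vehicle-injected groups had 3 libraries each, with 1 brain per library. All pups were C57BL/6 S-56 mice, and injected at P7 into the right lateral ventricle with either 18:1 LPA or its carrier, albumin in buffered saline. Brains were taken at P15 without the olfactory bulbs and the cerebellum, and nuclei that did not stain for NeuN, a protein of neuronal nuclei, were sorted for single-nucleus RNA sequencing. Sexes were mixed in both groups: by their sex-linked transcripts LPA 1, vehicle 1 and vehicle 3 were male and LPA 2, LPA 3 and vehicle 2 female.

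Cells take up retinol through STRA6, the receptor for retinol-binding protein. RDH10 oxidizes retinol to retinal, the retinal dehydrogenases ALDH1A1, ALDH1A2 and ALDH1A3 turn retinal into retinoic acid, and CRABP2 carries retinoic acid to the nucleus. There it binds retinoic acid receptors such as RARB, which sit on DNA as partners of retinoid X receptors such as RXRG, and CYP26B1 clears it by oxidation. The meninges, the layers of fibroblasts and barrier cells around the brain, are a known source of retinoic acid in the developing head.

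Rarb is itself a textbook target of its ligand through a direct repeat in its promoter, so promoter sequences of RefSeq on GRCm38.p6 were searched for such repeats. Each promoter ran from 250 bases before to 50 bases after a transcript start, and 6 of the 9 genes had one or more. The motif was a pair of hexamers in the same direction and 5 bases apart, read on both strands. Each hexamer could be AGGTCA, its variant AGTTCA, the variant GGGTCA or the variant GGTTCA. Only 32 of 32851 promoters (0.0974%) held it. Of the 11 promoters of the 6 genes only 1 held it, the Rarb promoter at chr14:16575427-16575726 on the minus strand, at positions -53 to -37 from the start. The Cyp26b1 promoter at chr6:84593761-84594060, also on the minus strand, held neither the repeat nor a single hexamer. A hexamer on its own was common, being present in 43.7% of all promoters and in 5 of the 11. Both sequences are shown because these genes carry the comparisons that follow, with the hexamers of the repeat in capitals.
Rarb: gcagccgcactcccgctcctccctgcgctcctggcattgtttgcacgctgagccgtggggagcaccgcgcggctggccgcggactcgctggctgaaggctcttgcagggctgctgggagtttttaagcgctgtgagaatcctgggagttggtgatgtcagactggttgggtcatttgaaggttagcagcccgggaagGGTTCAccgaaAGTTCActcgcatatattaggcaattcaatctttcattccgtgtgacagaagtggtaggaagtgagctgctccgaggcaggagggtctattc
Cyp26b1: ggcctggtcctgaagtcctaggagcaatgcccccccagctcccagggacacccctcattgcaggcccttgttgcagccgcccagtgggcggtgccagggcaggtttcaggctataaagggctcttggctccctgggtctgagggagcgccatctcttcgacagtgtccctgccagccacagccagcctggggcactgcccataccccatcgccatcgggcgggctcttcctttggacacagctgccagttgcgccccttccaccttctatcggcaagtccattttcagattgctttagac
Among 44 other genes of the pathway with a promoter, only Cyp26a1, a close relative of Cyp26b1, held the repeat. It lies on the opposite strand at positions -32 to -16, shown within chr19:37697754-37697813 on the plus strand.
Cyp26a1: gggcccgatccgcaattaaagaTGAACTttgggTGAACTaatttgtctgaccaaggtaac
A match is a description of letters and was not tested as a binding site.

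The 6 libraries held 8639 to 12894 barcodes and 48852970 to 65688644 unique molecular identifiers (UMIs, 1 per counted RNA molecule). After filters 57443 nuclei were kept, of which 48334 fell in clusters that could be named from marker genes. Names mean nuclei that are meningeal-like, astrocyte-like and so on, and all 9 genes were kept out of the genes used for clustering. The meningeal class held 4056 nuclei, from 294 to 488 per LPA library and from 660 to 1136 per vehicle library. That was 3.64% to 5.01% of the nuclei kept against 8.71% to 9.73%. The 14 meningeal markers, among them Col1a1, Dcn, Slc6a13 and Bnc2, summed to 9585 to 10216 CPM in LPA libraries and to 9163 to 9522 in vehicle libraries, with none at 0. CPM here always means UMIs of a gene in 1000000 UMIs of that cell type in that library, and levels are not compared between genes, since transcript lengths differ. A further cluster led by the meningeal transporter Slc6a13 and by Ptgds stayed without a name. It took 0.673% to 0.940% of LPA nuclei against 2.01% to 2.34% of vehicle nuclei. Libraries shared barcodes: 235 barcodes occurred in all 6, and 248 to 278 per library occurred in at least 3. Most of these, 241 to 271 per library, were over the limit of 1% mitochondrial UMIs, and 28 were kept over all libraries, 4 of them meningeal. They held Crabp2 at 96.3 to 139 CPM in both groups, and all values below are given with the 28 in place, since leaving them out moved none of the meningeal fold-changes beyond its error.

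In vehicle libraries meningeal nuclei gave most of the UMIs of 3 of the 9 genes, Cyp26b1, Aldh1a2 and Crabp2, and both receptors were highest in neurons. Cyp26b1 stood at 39.3 ± 8.0 CPM (SD, n = 3) in meningeal nuclei. That was 5.66 times its level of 6.93 ± 1.94 in astrocytes, the next class in order, with no overlap between their libraries. Below astrocytes the order could not be read: endothelial cells (3.46 CPM from 12 UMIs) and neurons (1.69 ± 0.33 CPM) overlapped their neighbors. Meningeal nuclei gave 58.3% of the 540 Cyp26b1 UMIs of named vehicle nuclei. In astrocytes the transcript was mostly in the cluster led by Slc6a11 and Agt, at 18.8 ± 5.6 CPM.

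Of the retinal dehydrogenases, Aldh1a2 was the most restricted. It reached 287 ± 61 CPM in meningeal nuclei, 15.9 times the endothelial level, and these nuclei gave 90.0% of its UMIs. Among whole classes Aldh1a1 was highest in astrocytes at 306 ± 31 CPM, above the 244 ± 21 of meningeal nuclei with no overlap. The meningeal level was 5.90 times the mural level. Aldh1a3 was near the limit of detection, with 82 UMIs in all named nuclei, 49 of them in neurons and 13 in meningeal nuclei. Rdh10 was highest in ependymal cells, the ciliated cells that line the ventricles, at 75.8 ± 9.4 CPM, 2.25 times the mural level. Mural, choroid plexus and meningeal nuclei followed at 33.8, 27.9 and 25.8 CPM and overlapped each other in part.

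Crabp2 was scarce, with 282 UMIs in named nuclei, of which 169 were meningeal. Its vehicle level of 15.3 ± 3.5 CPM in meningeal nuclei was 5.76 times that of the next class. Stra6 was highest in endothelial nuclei (29.8 ± 6.1 CPM), then meningeal nuclei (22 ± 2.6) and then choroid plexus (10.1 ± 3.3), with no overlap between neighbors. Both receptors were highest in neurons, nuclei that the NeuN gate was meant to remove. Rarb stood at 448 ± 33 CPM in neurons, 319 ± 23 in meningeal nuclei, 193 ± 4.4 in ependymal nuclei and 105 ± 15 in mural nuclei, each apart from the next. Rxrg reached 36.3 ± 1.8 CPM in neurons, 6.27 times its level in astrocytes. Within neurons both were highest in the Drd2 and Adora2a cluster, genes of striatal projection neurons, where Rarb reached 1695 ± 46 CPM and Rxrg 116 ± 3.2.

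The 6 meningeal sub-clusters split the pathway further. They are numbered and called here by their leading genes, and levels that led to a name are not findings. Aldh1a2 stood at 519, 445 and 442 CPM in vehicle libraries in sub-clusters 5 (Cyp26b1 and Slc22a2), 1 (Spo11 and Rspo2) and 2 (Tmem132c and Coch). It was at 7.44 and 11.8 CPM in sub-clusters 3 (Tspan11 and Slc47a1) and 6 (Itgb4 and Cdh1). Stra6 was highest in sub-cluster 6 at 89.6 ± 11.1 CPM, followed by 18.8 and 17.4 CPM in sub-clusters 7 and 3, and lowest in sub-cluster 5 at 1.55 CPM. Cyp26b1 stood at 173 ± 36 CPM in sub-cluster 5, and no UMI of it was found in the 489 nuclei of sub-cluster 6, which allows up to 0.613% of nuclei with a UMI by counting error and sets no limit on nuclei with the transcript at a low level. Rdh10 was highest in sub-cluster 7 (Col15a1 and Fbln2) at 89.8 ± 17.8 CPM, while Rarb was spread over all 6, from 261 to 409 CPM. Aldh1a1 averaged 539, 453 and 373 CPM in sub-clusters 2, 5 and 7, above the 362 of the Slc6a11 and Agt cluster, its highest in astrocytes. In sub-clusters 1, 6 and 3 it was at 101, 84.6 and 52.1 CPM.

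**Figure D1:**
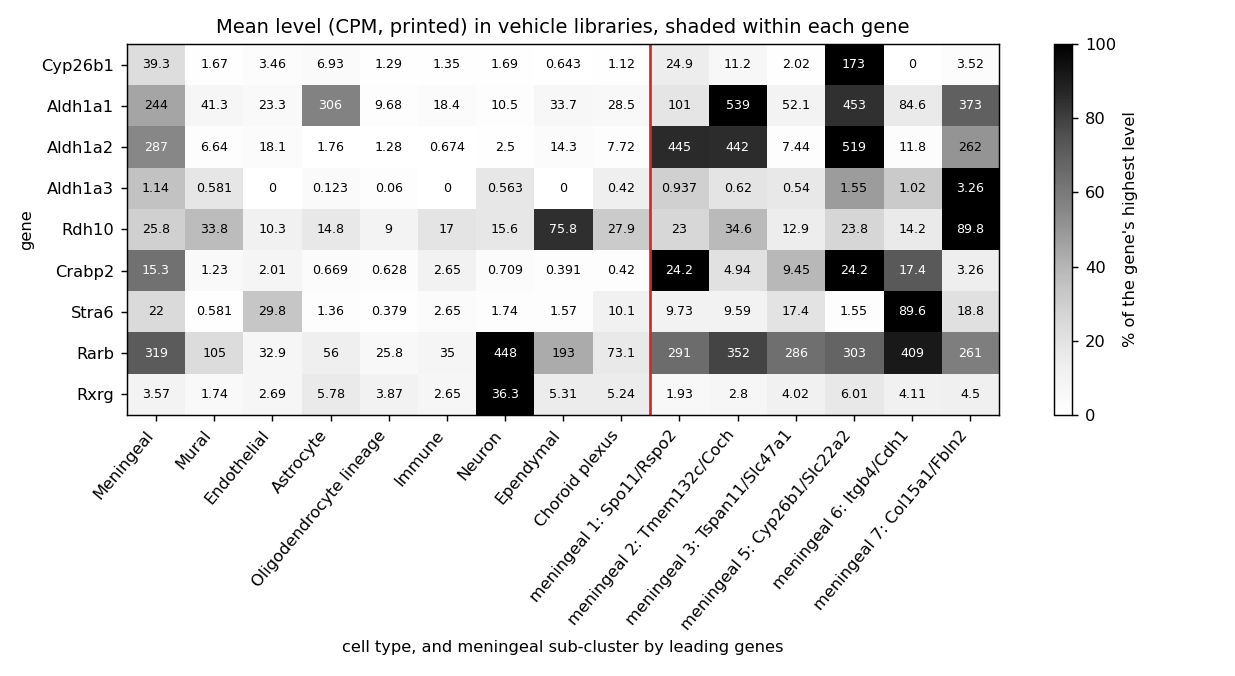
Mean level in the 3 vehicle libraries, in CPM, of each of the 9 genes (vertical axis) in 9 cell types and, right of the line, in 6 meningeal sub-clusters (horizontal axis). Shading gives the percent of the gene's own highest level. The darkest cells of Cyp26b1 and Aldh1a2 lie in meningeal sub-clusters, and those of Rarb and Rxrg in neurons. Rarb is also dark in the meningeal sub-clusters, at 261 to 409 CPM beside 448 in neurons.

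In meningeal nuclei LPA libraries held less Cyp26b1 and more Stra6 than vehicle libraries. Cyp26b1 (chr6:84571414-84593908, minus strand, GRCm38) was at 9.42, 7.89 and 8.73 CPM in LPA libraries 1 to 3, from 33 UMIs. In vehicle libraries it was at 47.6, 31.6 and 38.6 CPM, from 315 UMIs. Every LPA library lay below every vehicle library, and the log2 fold-change was -2.15 ± 0.24 (SE), or 4.44-fold lower. Stra6 (chr9:58063788-58153996, plus strand) was at 50.8, 46.8 and 48.0 CPM after LPA and at 23.8, 23.2 and 19.0 CPM after vehicle. Here every LPA library lay above, with a log2 fold-change of 1.15 ± 0.16, or 2.22-fold higher, over 367 UMIs. These transcripts, for the breakdown of retinoic acid and the uptake of its precursor, thus differed in opposite directions in the same class of nuclei, though they were highest in different sub-clusters of it.

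Rarb (chr14:16430839-16819156, minus strand), the receptor whose promoter is printed above, differed less. It was at 369, 413 and 371 CPM in LPA libraries and at 345, 304 and 308 CPM in vehicle libraries. The LPA libraries again lay above, by 0.28 ± 0.08 on the log2 scale from 4115 UMIs. The other members overlapped between groups. Aldh1a1 (chr19:20492715-20643465, plus strand) was at 247, 151 and 172 CPM against 265, 222 and 244, a log2 fold-change of -0.36 ± 0.13 that moved to -0.59 without LPA 1 and to -0.21 without LPA 2. Aldh1a2 (chr9:71215789-71296243, plus strand) was at 282, 356 and 326 CPM against 356, 240 and 265, with 0.19 ± 0.12, and 0.36 without vehicle 1. Rdh10 (chr1:16105774-16133734, plus strand) was at 27.1 ± 1.4 CPM against 25.8 ± 0.58, with 0.08 ± 0.17. Crabp2 (chr3:87948666-87953376, plus strand) was at 12.6 ± 3.2 against 15.3 ± 3.5 CPM, with -0.27 ± 0.27, from -0.45 without LPA 1 to -0.06 without LPA 2. Rxrg (chr1:167598384-167639623, plus strand) had 47 UMIs and Aldh1a3 (chr7:66390890-66427517, minus strand) 13 UMIs in these nuclei, so no difference was detectable at this depth.

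A DEG was called across all genes at an adjusted p under 0.05 (edgeR's quasi-likelihood test) and an absolute log2 fold-change that reached 0.25. By this rule 142 of 12351 genes (1.15%) were called in meningeal nuclei, 78 higher and 64 lower. Of the 9 genes 7 passed the filter on low counts and 2 were called, Stra6 higher and Cyp26b1 lower. Since these genes were picked with this contrast known, nothing is read from that count, nor from any call of a member in the cell types below. The groups did not overlap for 3 of the 8 genes with at least 30 UMIs, against 15% of all such genes.

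**Figure D2:**
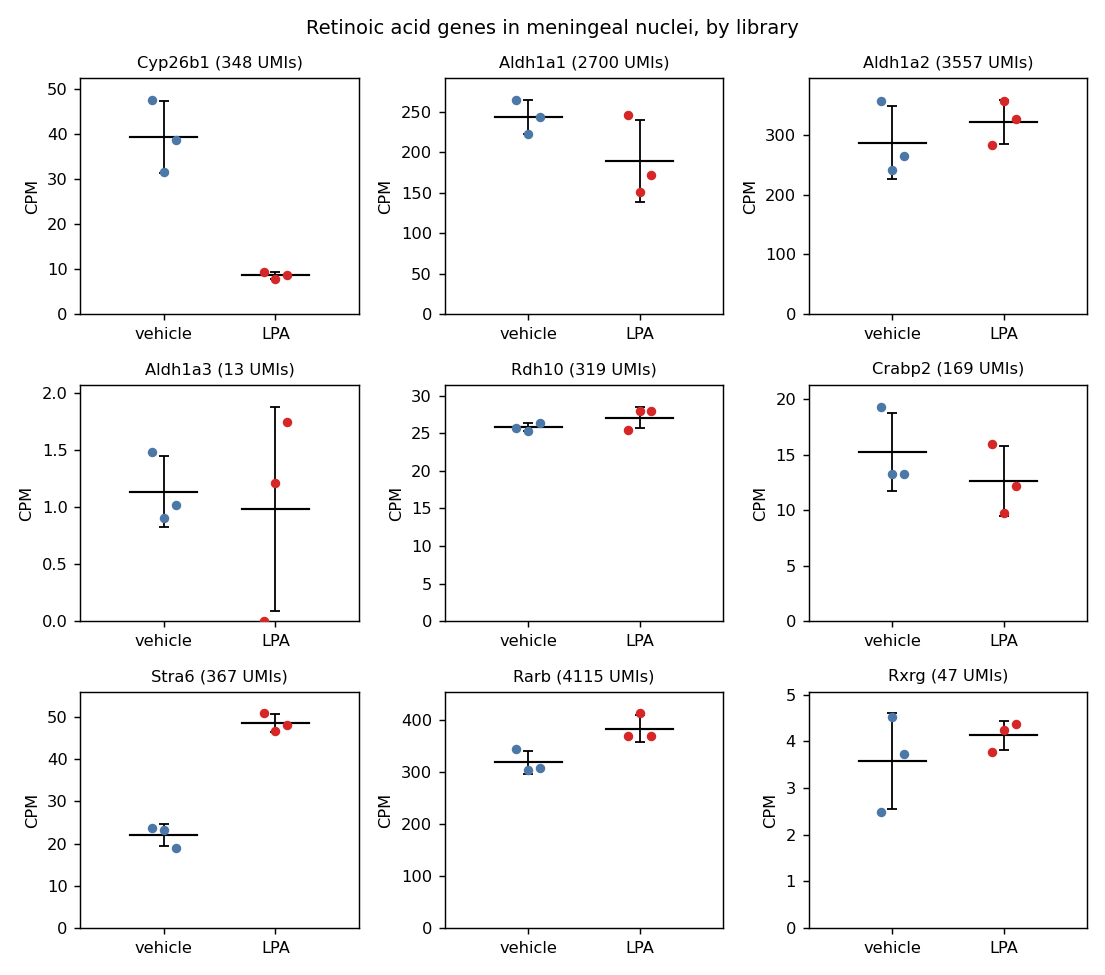
Level in CPM (vertical axis, from 0) of each of the 9 genes in meningeal nuclei of vehicle-injected and LPA-injected brains. Points are libraries, horizontal lines the mean and bars 1 SD (n = 3), and the number of UMIs behind each panel stands in its title; the points of the groups are apart for Cyp26b1, Stra6 and Rarb only.

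In vehicle libraries sub-cluster 5 held most of the meningeal Cyp26b1 UMIs, 248 of 315, whereas in LPA libraries sub-cluster 2 held 17 of 33 and sub-cluster 5 held 9. In sub-cluster 5 Cyp26b1 stood at 24.8, 30.6 and 17.8 CPM after LPA, from 9 UMIs, and at 191, 131 and 197 CPM after vehicle, from 248 UMIs. The groups were far apart, with a log2 fold-change of -2.74 ± 0.38, which ranged from -3.01 to -2.58 as each library was left out in turn. Cyp26b1 leads this sub-cluster and passed the low-count filter through the vehicle libraries, so nothing is read from its being called there, beside 0.522% of all genes. In sub-cluster 1 it was at 0, 7.81 and 4.27 CPM against 28.3, 24.6 and 21.8, also apart, but from 49 UMIs in all. In sub-cluster 2 the groups overlapped, at 43.6, 9.95 and 34.7 CPM against 5.84, 27.9 and 0, with 17 UMIs in each group. Because Cyp26b1 leads sub-cluster 5 and its nuclei lie close to sub-cluster 2, vascular nuclei were clustered again, after the data had been seen, without 1250 genes. Among these was every gene called between groups in the vascular class, its cell types or the meningeal sub-clusters, but not those called only in other classes. The new clustering joined 651 of the 668 nuclei of sub-cluster 5 with 643 of the 855 of sub-cluster 2. The joined sub-cluster had 1509 nuclei in all, the rest from outside both. In the joined sub-cluster Cyp26b1 was at 25.2, 15.9 and 15.4 CPM against 111, 76.0 and 95.2, a log2 fold-change of -2.33 ± 0.30, where 1.46% of genes were called. Meningeal markers summed to 8529 to 8868 CPM in sub-cluster 5 of LPA libraries and to 6674 to 7109 in vehicle libraries, and their part in the result was not tested.

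The mix of sub-clusters differed too. Sub-cluster 5 made up 8.16%, 10.5% and 10.5% of meningeal nuclei in LPA libraries and 23.8%, 18% and 17.3% in vehicle libraries. This gave p = 0.1 in a two-sided exact permutation test, the smallest that 3 against 3 libraries allow, and 0.3 after Benjamini-Hochberg adjustment over 6 sub-clusters, so it did not pass. Sub-cluster 7 was the reverse, at 19.7%, 11.3% and 11.7% against 6.52%, 8.11% and 7.04% (exact permutation test, p = 0.1, adjusted 0.3). The joined sub-cluster, defined without the called genes, held 31.0% ± 2.9 (SD, n = 3) of LPA and 39.6% ± 1.7 of vehicle meningeal nuclei (exact permutation test, p = 0.1, adjusted 0.25). When each library's sub-cluster levels were weighted by the vehicle mix, Cyp26b1 stood at 12.1, 10.2 and 10.2 CPM against 42.0, 34.6 and 40.7, a log2 ratio of -1.85. With equal numbers of nuclei drawn per sub-cluster the log2 fold-change was -1.15 ± 0.37, from 25 against 47 UMIs. Both log2 values were negative and smaller in size than the -2.15 of the nuclei as they came.

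**Figure D3:**
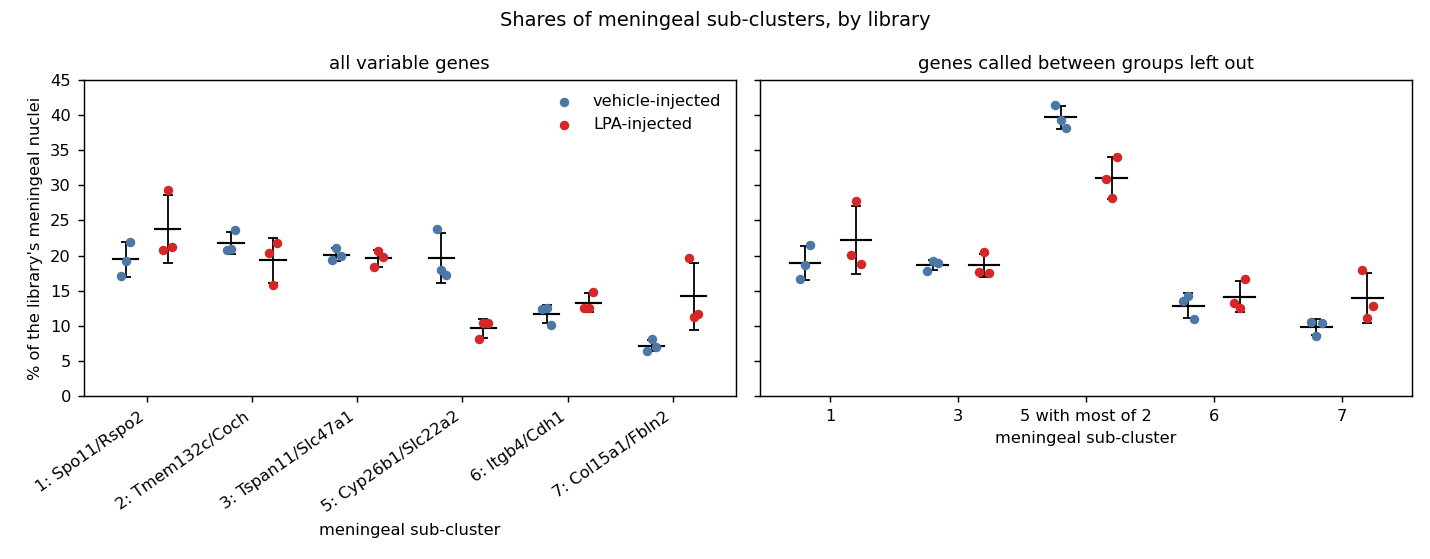
Share of each library's meningeal nuclei (vertical axis, percent) in each sub-cluster, with all variable genes (left) and with the genes called between groups in vascular nuclei left out of the clustering (right). Points are libraries, lines the mean and bars 1 SD (n = 3); LPA points of sub-cluster 5 lie below the vehicle points in both panels and those of sub-cluster 7 above.

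**Figure D4:**
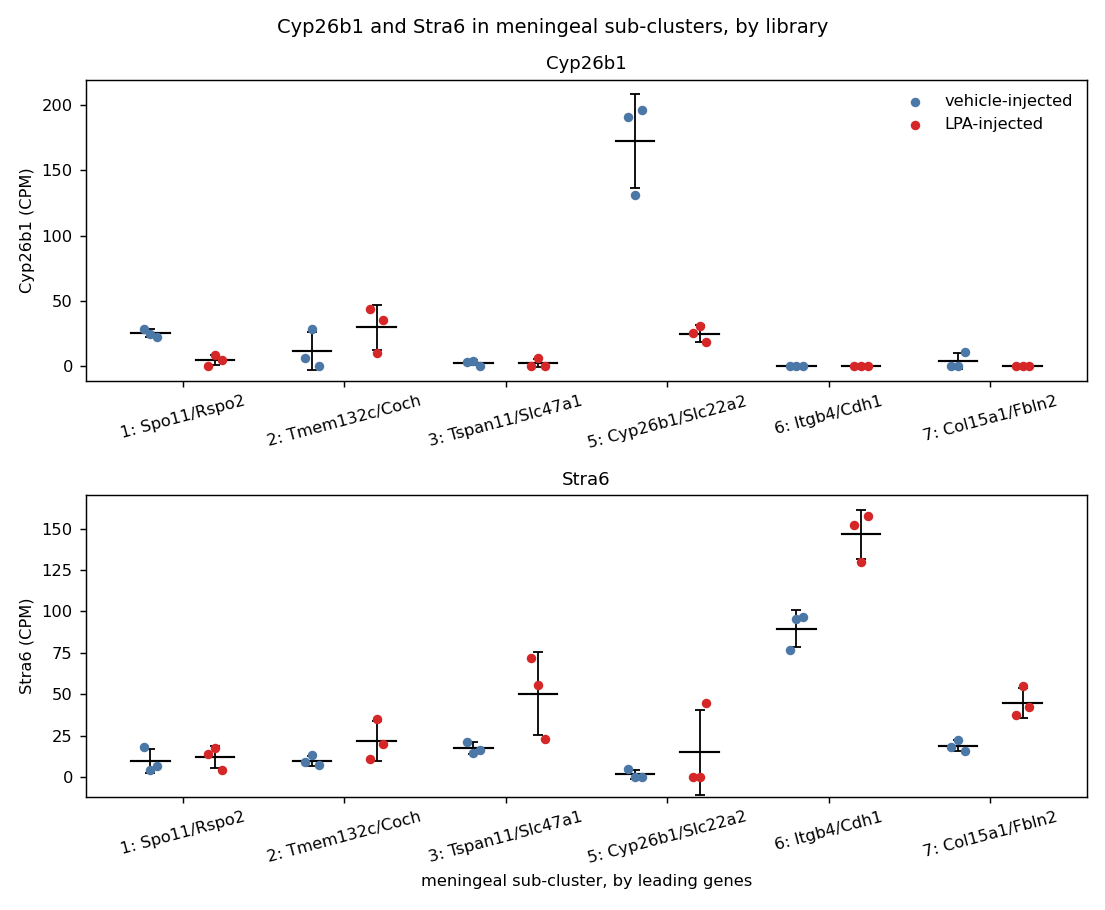
Level in CPM of Cyp26b1 (top) and Stra6 (bottom) in the 6 meningeal sub-clusters, by library, with the mean and 1 SD (n = 3; some bars reach below 0). The 3 vehicle points of sub-cluster 5 stand at 131 to 197 CPM of Cyp26b1, and the 3 LPA points of sub-cluster 6 at 130 to 158 CPM of Stra6.

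Fewer meningeal nuclei held a Cyp26b1 UMI after LPA. With each nucleus thinned to 1000 UMIs, which left out 26 shallower LPA nuclei and 43 vehicle nuclei, the share was 0.763%, 0.663% and 0.757% in LPA libraries. It was 3.50%, 2.50% and 2.07% in vehicle libraries, above all LPA libraries. Without thinning 21 of 1125 LPA nuclei and 141 of 2931 vehicle nuclei had a UMI. Neurons, a class low in Cyp26b1 though not the lowest, had a thinned share of 0.149% ± 0.039 (SD, n = 3) against 0.15% ± 0.038. Their median depth was 6509 and 5354 UMIs, against 3147 and 2712 in meningeal nuclei. Nuclei with the transcript held 2.00, 1.18 and 2.00 UMIs of it on average in LPA libraries, from 5, 11 and 5 nuclei, and 2.29, 1.91 and 2.59 in vehicle libraries, so the groups overlapped. In sub-cluster 5 the thinned share was 2.21% ± 0.78 against 10.3% ± 1.8, from 7 of 111 and 99 of 557 nuclei before thinning. The share of nuclei with a UMI was thus lower in every LPA library, and the UMIs per such nucleus, from few LPA nuclei, overlapped. At so few UMIs per nucleus, fewer nuclei with the transcript cannot be told apart from less of it in each.

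Stra6 differed the other way. In sub-cluster 6, which held the most of it, Stra6 was at 152, 130 and 158 CPM after LPA and 76.8, 95.6 and 96.4 after vehicle, with a log2 fold-change of 0.70 ± 0.23 from 200 UMIs. The LPA libraries were also all above the vehicle libraries in sub-cluster 3 (72.1, 55.6 and 22.8 against 21.4, 14.7 and 16.2 CPM). So they were in sub-cluster 7 (37.6, 54.9 and 42.0 against 18, 22.4 and 15.8 CPM, from 31 UMIs). Sub-clusters 1 and 2, with 28 and 27 UMIs, overlapped. In the joined sub-cluster Stra6 was at 26.3 CPM on average after LPA and 6.64 after vehicle, all LPA libraries above. The log2 fold-change there was 1.95 ± 0.49 from 45 UMIs. The thinned share of meningeal nuclei with a Stra6 UMI was 4.24% ± 0.42 after LPA and 1.85% ± 0.25 after vehicle, and 135 of 1125 and 145 of 2931 nuclei had one before thinning. In neurons the share was 0.210% ± 0.070 and 0.168% ± 0.057. Their Stra6 level was low but not the lowest, at 1.74 CPM in vehicle libraries beside 0.379 in the oligodendrocyte lineage. At the vehicle mix of sub-clusters the log2 ratio of Stra6 was 1.00. In endothelial nuclei, where Stra6 was highest in vehicle libraries, the groups overlapped at 14.9, 23.3 and 37.8 CPM against 24.6, 28.4 and 36.4 (log2 fold-change -0.24 ± 0.35). Choroid plexus also overlapped, at 12 ± 4.0 and 10.1 ± 3.3 CPM.

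Rarb was higher after LPA mostly in sub-cluster 3. There it was at 462, 475 and 437 CPM against 313, 280 and 266, a log2 fold-change of 0.68 ± 0.13, and it was the 1 member called there, where 0.711% of genes were called. In sub-cluster 6 it was at 457, 539 and 436 CPM against 396, 417 and 414, and in sub-cluster 7 at 317, 354 and 294 against 243, 287 and 254. All LPA libraries lay above in both, by 0.24 ± 0.14 and 0.28 ± 0.19 on the log2 scale, while sub-clusters 1, 2 and 5 overlapped. In ependymal nuclei the order was turned: Rarb stood at 144, 143 and 164 CPM after LPA and at 193, 188 and 197 after vehicle, a log2 fold-change of -0.36 ± 0.13 from 844 UMIs. It was not called there. In neurons, the class with the most Rarb, the groups overlapped at 476 ± 69 and 448 ± 33 CPM. So they did in the Drd2 and Adora2a cluster, at 1762, 1858 and 1687 against 1646, 1738 and 1701 CPM. Rxrg in that cluster was at 120, 132 and 135 CPM after LPA and 117, 112 and 117 after vehicle, all LPA libraries above, by 0.18 ± 0.08.

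Rdh10, the retinol dehydrogenase, was lower after LPA in ependymal nuclei. It was at 51.0, 50.6 and 50.6 CPM in LPA libraries and at 84.4, 65.8 and 77.2 CPM in vehicle libraries, a log2 fold-change of -0.60 ± 0.18 from 307 UMIs that did not pass as a call. Rdh10 and Rarb were the 2 members of 4 with at least 30 UMIs whose groups were apart in ependymal nuclei, against 20.1% of all such genes. The 11 ependymal markers summed to 11831 to 12932 CPM after LPA and 11666 to 12954 after vehicle. The 15 markers of the oligodendrocyte lineage moved with the groups in these nuclei, at 2136 to 2730 against 3912 to 4898 CPM, and their part in both results was not tested. In meningeal sub-cluster 7, where Rdh10 was highest, it was at 85.4 ± 5.6 and 89.8 ± 17.8 CPM and the groups overlapped.

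Aldh1a1 was lower after LPA in parts of the astrocytes. Over all astrocytes it was at 283, 256 and 224 CPM against 273, 311 and 333, with overlap and a log2 fold-change of -0.25 ± 0.08. In the largest astrocyte cluster, led by Grin2c and Slc1a2, it was at 241, 212 and 192 CPM against 257, 267 and 300 (-0.32 ± 0.08). In the Gfap-rich cluster it was at 219, 269 and 228 CPM against 354, 322 and 324 (-0.38 ± 0.11). Aldh1a1 was called in both, where 2.71% and 9.41% of genes were called, and nothing is read from these calls. The groups were apart in both clusters. In the Slc6a11 and Agt cluster they overlapped (-0.05 ± 0.12). Over all astrocytes the 12 astrocyte markers moved with the groups too, at a sum of 25246 to 26441 CPM after LPA and 27776 to 28749 after vehicle, and their part in this was not tested. The Gfap-rich cluster held 423, 512 and 421 of the 1727, 2075 and 1590 astrocytes of LPA libraries. In vehicle libraries it held 124, 246 and 218 of 1109, 1982 and 1829. The part of this mix in the level over all astrocytes was not tested. Cyp26b1 in the Slc6a11 and Agt cluster, its main site outside the meninges, was at 24.1, 22.1 and 1.87 CPM against 25.2, 16.3 and 14.8. LPA 3 stood apart from every other library, and the log2 fold-change of 0.01 ± 0.35 became 0.37 without it.

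Summed over all named nuclei, Cyp26b1 was at 2.89, 3.05 and 1.59 CPM after LPA and at 5.61, 4.80 and 4.83 after vehicle. Meningeal nuclei gave 12.7% of the 260 UMIs in LPA libraries, and astrocytes gave 40.4% against 17.8% in vehicle libraries. Aldh1a2 and Crabp2, at 13.5 ± 4.0 against 24 ± 2.4 and 0.867 ± 0.092 against 1.79 ± 0.067 CPM, were also lower in this sum, to which LPA libraries gave a smaller share of meningeal nuclei. Within meningeal nuclei the levels of both overlapped between groups, and that of Aldh1a2 was 321 CPM on average after LPA and 287 after vehicle. Over the whole vascular class, 3 members were called, Stra6 higher (0.70 ± 0.14) and Cyp26b1 (-2.33 ± 0.21) and Aldh1a1 (-0.79 ± 0.12) lower, where 8.49% of genes were called. Meningeal nuclei made up 46.3% to 52.5% of that class after LPA and 67.9% to 71.7% after vehicle. No member was called in astrocytes as a whole, the oligodendrocyte lineage, immune, neuronal, ependymal, choroid plexus, endothelial or mural nuclei, where between 0.0598% (choroid plexus) and 11.9% (oligodendrocyte lineage) of genes were called. Aldh1a2 in neurons was at 1.70, 1.1 and 1.01 CPM against 2.05, 2.75 and 2.71, all LPA libraries below. The 14 meningeal markers in neurons moved with it, at a sum of 60.5 to 83.9 against 92.2 to 121 CPM, none of them at 0 on average, and their part in this was not tested. In the oligodendrocyte lineage Aldh1a2 averaged 0.626 CPM after LPA and 1.28 after vehicle (-0.97 ± 0.38, 60 UMIs). Aldh1a1 averaged 7.97 and 9.68 CPM there (-0.29 ± 0.14), and all LPA libraries lay below for both. Rxrg averaged 4.83 and 3.87 CPM, all LPA libraries above (0.30 ± 0.18). The meningeal marker sum there was 62.8 to 77.9 against 86.6 to 98.0 CPM. Its part and that of the mix of clusters were not tested. In mural nuclei Aldh1a1 was at 27.7, 25.4 and 12.6 against 32.6, 50.5 and 40.6 CPM, where the meningeal marker sum was 1231 to 1460 against 1628 to 1741.

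**Figure D5:**
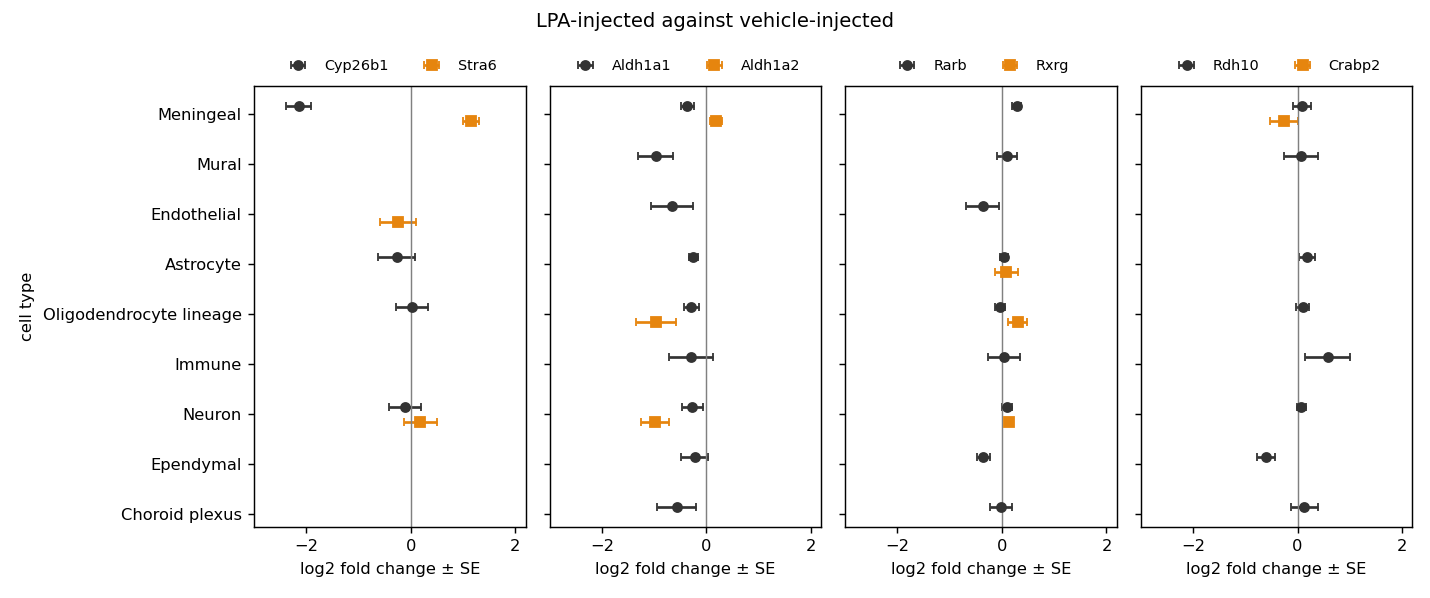
Log2 fold-change of LPA-injected against vehicle-injected libraries (horizontal axis, bars 1 SE) of 8 genes in the 9 cell types (vertical axis), where a gene had at least 30 UMIs and passed the filter. The points of Cyp26b1 at -2.15 and Stra6 at 1.15 in meningeal nuclei lie farthest from 0 on their sides.

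A list of 59 other genes of the pathway was tested by the same fit, with p-values adjusted over all genes of a cell type. In meningeal nuclei none of the 33 tested was called by edgeR or DESeq2, although 10 had an unadjusted p under 0.05, beside 10.5% of all genes. The lowest adjusted p was that of Aox3, an aldehyde oxidase, at 259, 239 and 255 CPM against 365, 286 and 325 (log2 fold-change -0.36 ± 0.09, adjusted p = 0.057). The median log2 fold-change of the 33 was -0.05, beside 0.00 for all genes. None was called by edgeR in any meningeal sub-cluster, where 12 to 19 were tested and 0 to 3 had an unadjusted p under 0.05. Of all genes, 0.0956%, 0.532% and 0.353% were called in sub-clusters 1, 2 and 6. Of the breakdown enzymes, Cyp26a1 and Cyp26c1, neither passed the filter.

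Over the vascular class 6 of 33 list genes were called by edgeR, 3 higher and 3 lower, where 8.49% of all genes were called. DESeq2 called 3. Aox3 fell by 0.82 on the log2 scale (SE 0.08, adjusted p = 6.1e-05) and Ppard, a nuclear receptor that can bind retinoic acid, rose by 0.72 ± 0.09 (adjusted p = 0.00032), and both were called with any 1 library left out. Bhlhe40 (0.55 ± 0.15, adjusted p = 0.028) and the lipoprotein receptor Scarb1 (0.54 ± 0.15, adjusted p = 0.031) rose. The carrier Rbp4 (-1.31 ± 0.36, adjusted p = 0.031) and Cyp1b1 (-0.61 ± 0.18, adjusted p = 0.047) fell. These 4 were called in only 1 or 2 of the 6 fits with 1 library left out. Since the share of meningeal nuclei differed in this class, a change of mix cannot be told apart from a change within cells.

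In astrocytes 4 of 33 list genes were called by edgeR and 2 by DESeq2, where 7.88% of all genes were called by edgeR. Meis2, a homeobox gene, rose by 0.42 ± 0.07 (adjusted p = 0.00061) and the receptor Rarg by 0.58 ± 0.14 (adjusted p = 0.014). Fabp5, a carrier of retinoic acid, fell by 0.41 (SE 0.09, adjusted p = 0.0056), and was not called without vehicle 2. The Gfap-rich cluster held a larger share of the astrocytes in LPA libraries, as given above, and its part in these values was not tested. In the oligodendrocyte lineage 6 of 33 were called by edgeR and 4 by DESeq2, where 11.9% of all genes were called by edgeR, with Meis2 (0.50 ± 0.07, adjusted p = 0.00032) and Rarg (0.82 ± 0.19, adjusted p = 0.010) higher. The 12 astrocyte markers summed to 1374 to 1581 CPM in these nuclei after LPA and 1120 to 1294 after vehicle, and the 15 markers of the lineage itself to 26710 to 27843 and 29187 to 29986. Of the 1689, 2276 and 1929 nuclei of the lineage in LPA libraries, 496, 699 and 508 were in a cluster like oligodendrocyte precursors. In vehicle libraries 335, 543 and 362 of 1881, 2731 and 2448 were. The part of these markers and of the mix of clusters in these results was not tested. Rdh12, a retinal reductase, fell there (-0.84 ± 0.22, adjusted p = 0.018), but was called in only 2 of the 6 fits with 1 library left out, those without LPA 2 or vehicle 2. Meis2 also rose in ependymal nuclei (0.56 ± 0.12, adjusted p = 0.013), in which Rarres2, the gene of chemerin, fell (-1.1 ± 0.18, adjusted p = 0.00082). These were 2 of 25, where 3.63% of all genes were called. In immune nuclei 3 of 20 were called by edgeR and 1 by DESeq2, where 8.55% of all genes were called by edgeR. These nuclei were microglia-like only. The cluster led by the macrophage genes F13a1 and Mrc1 (1445 nuclei) stayed without a name and was left out. The mix of clusters in the immune class differed between groups. Of the 394, 539 and 422 immune nuclei of LPA libraries, 134, 196 and 206 were in a cluster that is activated microglia-like. In vehicle libraries 0, 1 and 1 of 113, 322 and 98 were. The rest of both groups were in a cluster that is homeostatic microglia-like. The values below are over the class as a whole, and the part of the activated microglia-like cluster in them was not tested. The retinal reductase Dhrs3 rose from 85.0 ± 20.9 to 203 ± 52 CPM (1.26 ± 0.22, adjusted p = 9.1e-05) and Rxra rose (1.11 ± 0.36, adjusted p = 0.047), while the co-repressor Nrip1 fell (-0.43 ± 0.13, adjusted p = 0.032). Immune markers themselves summed to 8858 to 9648 CPM after LPA and 11476 to 13228 after vehicle in these nuclei, and those of the oligodendrocyte lineage to 2003 to 2416 and 2754 to 4001. No list gene was called by edgeR or DESeq2 in neurons, choroid plexus, endothelial or mural nuclei, where 18 to 37 were tested and 1 to 4 had an unadjusted p under 0.05. Of all genes 0.065% were called in neurons, 0.292% in endothelial and 0.376% in mural nuclei. Meis2 in astrocytes and oligodendrocytes, Rarres2 and Dhrs3 were called with any 1 library left out, whereas Rxra and Nrip1 were called in 1 of those 6 fits each. Rarg in astrocytes was not called without LPA 2, LPA 3 or vehicle 3, Rarg in oligodendrocytes not without LPA 2 or vehicle 3, and Meis2 in ependymal nuclei not without LPA 3 or vehicle 2.

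Across 30 cell types and sub-clusters of vehicle libraries, the levels of Cyp26b1 on a log2(CPM + 1) scale were most like those of Slc22a2 (Pearson r = 0.79), AU023762 (0.79) and Trim63 (0.77), out of 16859 genes. Aldh1a2 was most like Slc6a13 (0.97), Slc22a6 (0.96) and Fmod (0.96), the first 2 being meningeal markers used for naming. Aldh1a1 was most like Fmo1 (0.95), Slc7a11 (0.94) and Gjb6 (0.92), and Stra6 most like Lsr (0.85), Ccdc125 (0.83) and Sertad1 (0.82). For Rdh10 these were Prelp (0.81), Gm26887 (0.80) and 5530601H04Rik (0.79), and for Crabp2 Foxc2 (0.89), Senp3 (0.88) and Asgr1 (0.88). Rarb was most like Foxp2 (0.80), S100pbp (0.78) and Lmo4 (0.78), and Rxrg most like Rgs9 (0.82), Meis2 (0.81) and Gm50024 (0.81). Between members, Cyp26b1 was closer to the synthesis gene Aldh1a2 (0.65) than to the receptor gene Rxrg (-0.14). The types share libraries and free RNA, and the 6 sub-clusters are part of 1 class, so these values describe and carry no test.

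In vehicle libraries the nuclei that held the breakdown enzyme often held a synthesis enzyme as well. Of the 42, 55 and 44 meningeal nuclei with a Cyp26b1 UMI in the vehicle libraries, 59.5%, 58.2% and 59.1% also had an Aldh1a2 UMI. The share was 40.8%, 35.7% and 34.7% in the other meningeal nuclei, at a median depth of 2888, 2712 and 2404 UMIs against 2900, 2749 and 2685. Stra6 was found in 0, 1 and 0 of these nuclei, or 0%, 1.82% and 0%, and in 5.50%, 5.56% and 4.58% of the others. In LPA libraries only 5, 11 and 5 nuclei had a Cyp26b1 UMI, of which 40%, 54.5% and 60% also had an Aldh1a2 UMI, against 45.3%, 45.9% and 41.1% of the others, so LPA 1 went the other way. Within the joined sub-cluster of vehicle libraries, the Aldh1a2 shares came closer, at 62.5%, 57.8% and 61.1% against 62.1%, 53.0% and 51.2%. The Stra6 shares came closer too, at 0% in each library against 1.65%, 1.98% and 0.746%.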

How the data were processed

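Single-nucleus RNA sequencing of NeuN-negative brain nuclei (10x Genomics 3′ v3) was read from 6 libraries, grouped as LPA or vehicle by their labels. The authors deposited filtered matrices of raw UMI counts, made with Cell Ranger 4.0.0 on a pre-mRNA reference of mm10, with no normalization. Following the paper's Methods, nuclei were kept if they had 300 genes or more, if mitochondrial UMIs did not exceed 1%, and if their UMIs stayed below an upper limit set per library at 1.5 interquartile ranges over the upper quartile. The factor of 1.5 was chosen here. The study's SCTransform integration, label transfer and Wilcoxon test on nuclei were not repeated, because nuclei of 1 mouse are not replicates.

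Nuclei were clustered with scanpy 1.11.5 and leidenalg 0.10.2 (3000 variable genes, 40 components, 30 neighbors, resolution 1, seed 1; Python 3.11.15), and 7752 vascular nuclei again on 2000 genes and 20 components. The 9 genes, all listed pathway genes and all markers were barred from the variable genes. Class names were given by the mean over the 8 best markers of each class, and needed 3 markers found in 10% of the nuclei of the cluster. Mixed clusters and those whose leading genes went against the name stayed unnamed (10 of 39), by limits set after the clusters had been seen. Scrublet called 12.3% to 15.7% of nuclei per library and 1.14% to 2.11% of meningeal nuclei, and these were left out only in an alternative. Because names were rebuilt here, values can differ from those of the study.

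UMIs were summed per library and class with at least 10 nuclei in every library. edgeR 4.0.16 (R 4.3.3) with its default filter, TMM factors and the quasi-likelihood test gave fold-changes, SEs and Benjamini-Hochberg adjusted p-values over all genes of a class. The edgeR and DESeq2 fits, but not the other steps, were also run on simulated counts with known changes. No libraries were duplicates, as chi-square per gene was 13.3 to 26.8 between libraries of the same group. Shares used a two-sided exact permutation test (20 assignments). Limits given for a count of 0 account for counting error alone. Gene coordinates follow GENCODE M21 (GRCm38), and promoters come from RefSeq.

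The 9 genes, the pathway lists and the markers were chosen with earlier results of these data known. Named genes are the 9 in every class with at least 30 UMIs, listed pathway genes called in meningeal or vascular sums, up to 3 of lowest adjusted p in other classes, and the 3 genes most like each member with at least 200 UMIs. Aox3 in meningeal nuclei was named after its value was seen. The alternatives were DESeq2 1.42.0, no low-count filter, a replicate block, a sex term, each library left out, no mitochondrial filter, Scrublet calls left out, Leiden resolution 2, equal numbers per sub-cluster, other thinning depths and TMM-scaled levels. Leaving out shared barcodes, clustering without called genes and weighting by the vehicle mix were added after seeing the data.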

Additional observations from a re-analysis of the deposited data

Results flagged for a closer look

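Rarb differed in opposite directions in 2 cell types. All LPA libraries lay above all vehicle libraries in meningeal nuclei and below them in ependymal nuclei, and the log2 fold-change in meningeal nuclei was higher by 0.64. The difference between these cell types was not tested.

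The unnamed cluster led by Slc6a13 and Ptgds entered no comparison. Its Rarb level in LPA libraries was 287 CPM on average (255, 269 and 336), above the 239 CPM of vehicle libraries (247, 224 and 246), with no overlap. Only members with every LPA library above were sought in this cluster, so a member lower after LPA could not be flagged.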

How the results depend on the processing

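Over 80 fold-changes of the 9 genes and 1203 alternative values, 35 moved by more than the error, 11 of them with 1 library left out. The sign was another in 76, of which 2 had a size of at least 0.25, and no called fold-change changed sign. For Cyp26b1 in meningeal nuclei the log2 fold-change was -1.15 with equal numbers per sub-cluster and -1.85 at the vehicle mix, -2.29 to -2.02 with 1 library left out, and in sub-cluster 5 it was -3.27 at Leiden resolution 2 and -3.01 to -2.58 with 1 library left out. Stra6 was at 0.88 without the mitochondrial filter and shared barcodes and at 1.06 to 1.21 with 1 library left out, and Rarb at 0.23 to 0.33. With equal numbers Aldh1a1 was at -0.16 and Rdh10 at -0.25. With 1 library left out Aldh1a1 ranged from -0.59 to -0.21, Aldh1a2 from 0.076 to 0.36, Rdh10 from 0.06 to 0.12 and Crabp2 from -0.45 to -0.06. The causes were not tested.

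The 142 genes called in meningeal nuclei became 325 without the low-count filter, 60 with equal numbers, and 67 (without vehicle 3) to 140 with 1 library left out (87 without LPA 3). Without the mitochondrial filter alone the class held only 29 or 30 nuclei per library, those of shared barcodes, and 0 genes were called by edgeR. Of the pathway list in meningeal nuclei 2 were called without the low-count filter, 2 without the mitochondrial filter and shared barcodes, and 0 to 1 with 1 library left out. With DESeq2 the list genes called were 2 against 4 in astrocytes, 4 against 6 in the oligodendrocyte lineage and 1 against 3 in immune nuclei. In the vascular class the 6 became 3 with DESeq2, 3 with a sex term, 0 without the mitochondrial filter, and 2 to 5 with 1 library left out. The difference in the share of nuclei with a Cyp26b1 UMI was -1.96 percentage points, -2.96 at 2000 UMIs and -3.22 as the nuclei came, and -2.27 to -1.56 with 1 library left out. For Stra6 it was 2.39, 4.45, 6.88 and 2.18 to 2.60. The difference in the share of sub-cluster 5 was -11.2 to -7.91 points, and that of sub-cluster 7 was 4.25 to 8.47, with 1 library left out. DESeq2 called fewer genes than edgeR in astrocytes (747 against 1150), their Gfap-rich cluster (576 against 984), immune (443 against 805), ependymal (196 against 392), endothelial (6 against 24) and mural nuclei (5 against 29) and sub-cluster 2 (19 against 30), and more in neurons (31 against 11) and sub-cluster 1 (11 against 7).

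Libraries of the 2 groups share replicate numbers only. In meningeal nuclei the deviations of same-numbered libraries correlated at 0.09, 0.11 and -0.10, and 2 of 6 libraries correlated best with their own number. In ependymal nuclei 5 libraries did so (0.06, 0.10 and 0.01), in immune and mural nuclei 4, and in the other classes 2 or 3. The numbers were not taken as a pairing, and a block for them is given as an alternative. The replicate block changed the number of genes called to 21 in neurons, 14 against 6 in choroid plexus, 43 in endothelial and 60 in mural nuclei, 53 against 20 in sub-cluster 6, 1 against 0 in sub-cluster 7 and 215 against 349 in the largest astrocyte cluster. In meningeal nuclei it gave 134 genes, and the log2 fold-changes were -2.14 for Cyp26b1, 1.15 for Stra6, 0.28 for Rarb, -0.38 for Aldh1a1, 0.20 for Aldh1a2, 0.09 for Rdh10 and -0.27 for Crabp2, with -2.69 for Cyp26b1 in sub-cluster 5.

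Depth limits the scarce genes most. Cyp26b1 rests on 33 UMIs in LPA meningeal nuclei, with a log2 fold-change of -2.15, and the smallest p that 3 against 3 libraries allow for a share is 0.1.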
